A study of Mus musculus with 56 samples.

Results

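Mitochondrial ribosomal protein genes were examined in liver RNA sequencing (RNA-seq) from hypo- and hyperthyroid mice. A gene was taken as a member when its symbol began with Mrpl or Mrps followed by a digit and when its mean level over the 12 libraries was at least 1 RPKM (reads per kilobase of transcript, scaled to the aligned reads of the library). Of 23813 genes in the table, 78 matched the name pattern and 76 were kept, 48 with an Mrpl and 28 with an Mrps symbol. Mrps33 (mean 0.882 RPKM) and Mrpl23 (0.411 RPKM) fell below the limit, and the lowest members kept were Mrps36 (1.59 RPKM), Mrpl48 (2.63 RPKM) and Mrpl19 (2.91 RPKM).

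The mitochondrial ribosome translates the few messenger RNAs encoded by mitochondrial DNA, which specify core subunits of the respiratory chain and of ATP synthase. Its RNA is made inside the mitochondrion, whereas its proteins are encoded in the nucleus, made in the cytosol and imported. It has a large subunit, which forms peptide bonds, and a small subunit, which decodes the messenger, and it combines proteins with bacterial counterparts and proteins found only in mitochondria. In liver, thyroid hormone is known to raise mitochondrial respiration.

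RNA was measured in the livers of male mice in 3 groups of 4 libraries. Hypothyroid WT mice were fed for 16 days on food low in iodine that held 0.15% propylthiouracil (PTU), an inhibitor of thyroid hormone synthesis, and were given vehicle at the end. Hyperthyroid WT mice were fed likewise and had 5 μg of triiodothyronine (T3) by injection for the final 4 to 6 days. Hypothyroid L-NCOR1ΔID mice, on PTU without T3, express in the liver a nuclear receptor corepressor 1 (NCOR1) that lacks the domains contacting the thyroid hormone receptor (TR), and the line was kept on a mixed C57BL/6;129S background. All 3 groups thus received PTU. Ages are given by the study as group means over all animals used, not for the mice of these libraries, and the mean of the L-NCOR1ΔID mice on PTU was lower than that of either WT group. The strain of these WT mice and the promoter that drives the liver-specific change are not given in the sources used here. The RPKM steps between low values gave an estimated depth of 21.3 to 26.1 M reads (M, mega) per hyperthyroid library, 29.1 to 38.2 M per hypothyroid WT library and 38.1 to 42.7 M per L-NCOR1ΔID library. The table held only scaled values, so that the members rested on about 16 to 4302 reads per library by this estimate, with a median of 442 in the library where each was lowest. Hepatocyte markers were high in all libraries, and Alb had a mean of 31804 RPKM in hypothyroid and 14325 RPKM in hyperthyroid WT mice.

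Each pair of groups was compared with limma on log2(RPKM + 0.1), with Benjamini-Hochberg adjustment over all genes that reached 0.1 RPKM in 4 or more of the 8 libraries compared. A member was called at an adjusted p under 0.01. All 76 members passed the filter in each comparison. Since 0.1 RPKM was added, a fold change on this scale slightly understates changes at low levels. The methods of the study speak of 4 biological replicates for RNA, whereas the labels do not tie each library to a mouse. The p-values set the difference between groups against the spread between these libraries, which limma moderates with that of all genes tested.

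Of the 76 members, 50 encode proteins of the large subunit, among them Mrps30 and Mrps18a, whose symbols predate that assignment. Another 25 encode proteins of the small subunit, and Mrps36 has since been assigned to the oxoglutarate dehydrogenase complex. Proteins with a bacterial counterpart numbered 29 in the large and 16 in the small subunit, and those classed as found only in mitochondria 21 and 9. The latter class holds Mrps18a, which is related to bacterial S18, so that its name does not hold for each protein in it.

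Promoter sequences are shown for the 5 members whose call after T3 had the same direction on the deposited scale and relative to the median gene. Each line holds the 250 bases before the RefSeq transcription start, 5′ to 3′ on the strand of the gene (build GRCm38.p6), with capitals for a match to a motif of nuclear respiratory factor 1 (NRF1, GCGCANGCG), of ETS factors such as GABP (CCGGAAG), of YY1 (AANATGGCG) or to the E-box (CACGTG), on either strand. The Mrpl12 line is chr11:120484387-120484636 on the plus strand, Mrpl20 is chr4:155802628-155802877 (plus), Mrpl34 is chr8:71464676-71464925 (plus), Mrpl37 is chr4:107066867-107067116 (minus) and Mrpl14 is chr17:45686099-45686348 (plus).
Mrpl12: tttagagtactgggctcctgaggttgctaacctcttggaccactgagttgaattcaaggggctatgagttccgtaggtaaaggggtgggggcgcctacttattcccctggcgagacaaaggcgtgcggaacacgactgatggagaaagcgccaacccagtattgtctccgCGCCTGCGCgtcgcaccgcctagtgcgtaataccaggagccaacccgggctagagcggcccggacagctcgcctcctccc
Mrpl20: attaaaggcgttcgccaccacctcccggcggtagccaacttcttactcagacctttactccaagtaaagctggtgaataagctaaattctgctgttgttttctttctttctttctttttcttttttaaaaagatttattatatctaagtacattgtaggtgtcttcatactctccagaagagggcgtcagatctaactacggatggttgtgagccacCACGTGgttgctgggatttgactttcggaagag
Mrpl34: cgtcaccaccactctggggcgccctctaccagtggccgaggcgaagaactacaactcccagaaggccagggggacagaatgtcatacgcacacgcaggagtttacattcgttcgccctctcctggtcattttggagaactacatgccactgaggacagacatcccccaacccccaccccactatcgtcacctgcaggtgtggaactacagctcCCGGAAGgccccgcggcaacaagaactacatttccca
Mrpl37: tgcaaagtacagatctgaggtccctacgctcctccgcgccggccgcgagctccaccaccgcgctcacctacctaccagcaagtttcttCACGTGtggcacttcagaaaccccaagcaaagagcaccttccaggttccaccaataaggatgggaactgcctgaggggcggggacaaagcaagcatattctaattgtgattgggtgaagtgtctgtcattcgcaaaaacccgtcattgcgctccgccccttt
Mrpl14: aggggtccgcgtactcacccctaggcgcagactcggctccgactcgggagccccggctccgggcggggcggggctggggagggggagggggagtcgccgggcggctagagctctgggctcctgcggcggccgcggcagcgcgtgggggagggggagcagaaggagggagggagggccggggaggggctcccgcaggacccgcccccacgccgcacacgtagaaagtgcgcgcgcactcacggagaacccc

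Matches after the start were found in 2 of these promoters and are shown as 30 bases each. The YY1 match of Mrpl37 lies in chr4:107066821-107066850 (minus strand) and the NRF1 match of Mrpl14 in chr17:45686349-45686378 (plus strand).
Mrpl37 after the start: tgcacgggcaAAGATGGCGgcgtccaggta
Mrpl14 after the start: tggcGCGCAGGCGcagcgtgcggggcgggg

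No motif was present in all 5 promoters. Mrpl12 had an NRF1 match 80 bases before the start and Mrpl14 one from base 5 after it. Mrpl20 and Mrpl37 each had an E-box, at 33 and 162 bases before the start, and Mrpl37 also had the YY1 match. Mrpl34 had an ETS match at 37 bases before the start. The letters searched were not found in the 250 bases before the start of Mrpl14, which says nothing of factors that bind other letters.

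RefSeq promoters of 300 bases (250 before and 50 after the start) were found for 67 members. NRF1 matches occurred in 16 of these (23.9%, exact 95% interval 14.3 to 35.9%), compared to 6.47% of all 27025 promoters. ETS matches occurred in 24 (35.8%, 24.5 to 48.5%) compared to 9.12%, and YY1 matches in 11 (16.4%, 8.49 to 27.5%) compared to 2.51%. At least 1 of these 3 motifs was present in 41 member promoters (61.2%) and in 16% of all promoters. The other motifs had similar or lower shares in members. E-boxes occurred in 5 member promoters (7.46%) and in 7.24% of all. A direct repeat of AGGTCA spaced by 4 bases (DR4), the classical TR element, with at least 10 of 12 bases matching, occurred in 1 (1.49%, in Mrpl57) and in 3.01% of all. Member promoters had a median GC content of 58.0% compared to 52.7% over all, and the part of base composition in the shares was not tested. The YY1 letters hold a start codon, and 9 of the 11 member promoters with this motif had it only after or across the start, since 2 (2.99%, compared to 1.12% of all) had it in the bases before it.

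**Figure D1:**
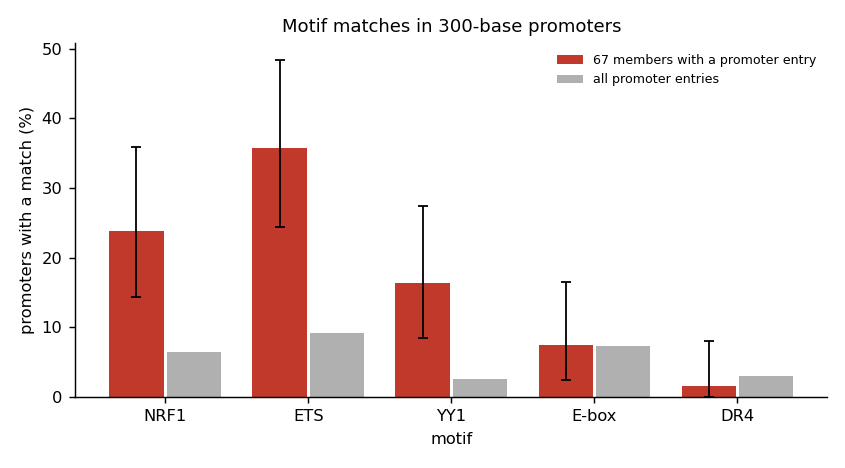
Share of promoters (y axis, percent) with at least 1 match to each motif (x axis) in the 67 members with a promoter entry (red, exact 95% interval) and in all 27025 entries (grey). NRF1, ETS and YY1 matches stood at 23.9, 35.8 and 16.4% of member promoters compared to 6.47, 9.12 and 2.51% of all, while E-box and DR4 shares were similar or lower.

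The members were expressed over a wide range in hypothyroid WT mice. The median member had 16.5 RPKM, the lower quartile was 11.6 and the upper quartile 24.6 RPKM. Mrpl12, the large subunit stalk protein to which translation factors bind, was the most abundant in each of the 3 groups. Over all 12 libraries it had a mean of 84.1 RPKM, followed by Mrpl14 (50.6), Mrpl52 (49.8), Mrpl24 (47.6) and Mrpl30 (42.7 RPKM). In hypothyroid WT libraries Mrpl14 (50.3 to 67.5 RPKM) stood above Mrpl52 (42.2 to 45.8), Mrpl24 (43.4 to 48.2) and Mrpl30 (40.4 to 44.8 RPKM), whose ranges overlapped. Replicates of a member were close to each other, with a median SD of 0.09 on the log2 scale over the 4 hypothyroid libraries compared to 0.16 for all genes tested. The latter reach down to the filter of 0.1 RPKM and were not matched to the level of the members, so that the part of level in this difference was not tested. Over these hypothyroid libraries the steadiest members were Mrpl2 (SD 0.02), Mrpl17 (0.04) and Mrpl13 (0.04), proteins of the large subunit. The least steady there were Mrps36 (0.41), Mrpl4 (0.26) and Mrps26 (0.22). This order did not hold in each group, since Mrpl2 had an SD of 0.19 over the L-NCOR1ΔID libraries, where the median member had 0.11.

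The first comparison asked how T3 treatment changed the members in WT liver. A total of 14 of the 76 members (18.4%) were higher in hyperthyroid mice, when 24.5% of all 13941 genes tested were, and 1 member (1.32%) was lower compared to 7.71% of all genes. No member passed the further limit of a log2 fold change above 1 in size (0 members), which 8.28% of all genes passed as higher and 3.47% as lower. The median log2 fold change was 0.16 over the members and 0.23 over all genes tested, and it was above 0 in 57 members (75%, compared to 69.9% of all genes). Members were therefore not called more often than other genes, and their median lay below that of all genes. Hypothyroid and hyperthyroid libraries did not overlap in 24 members that were higher (31.6%, compared to 35.8% of all genes) and 3 that were lower (3.95%, compared to 10.8%).

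Since most genes were higher after T3 on the RPKM scale, the libraries were also scaled to the median of their gene ratios, which gives a change relative to the median gene. On that scale the median of all genes moved from 0.23 to 0.01, 4 members were higher (5.26%, compared to 12.2% of all genes) and 9 were lower (11.8%, compared to 14.0%). The median of the members was −0.08. Of the 14 members called higher as deposited, 4 kept the call (Mrpl20, Mrpl12, Mrpl34 and Mrpl37) and 10 lost it. Mrpl14 was lower on both scales, and 8 members were lower only relative to the median gene.

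**Figure D2:**
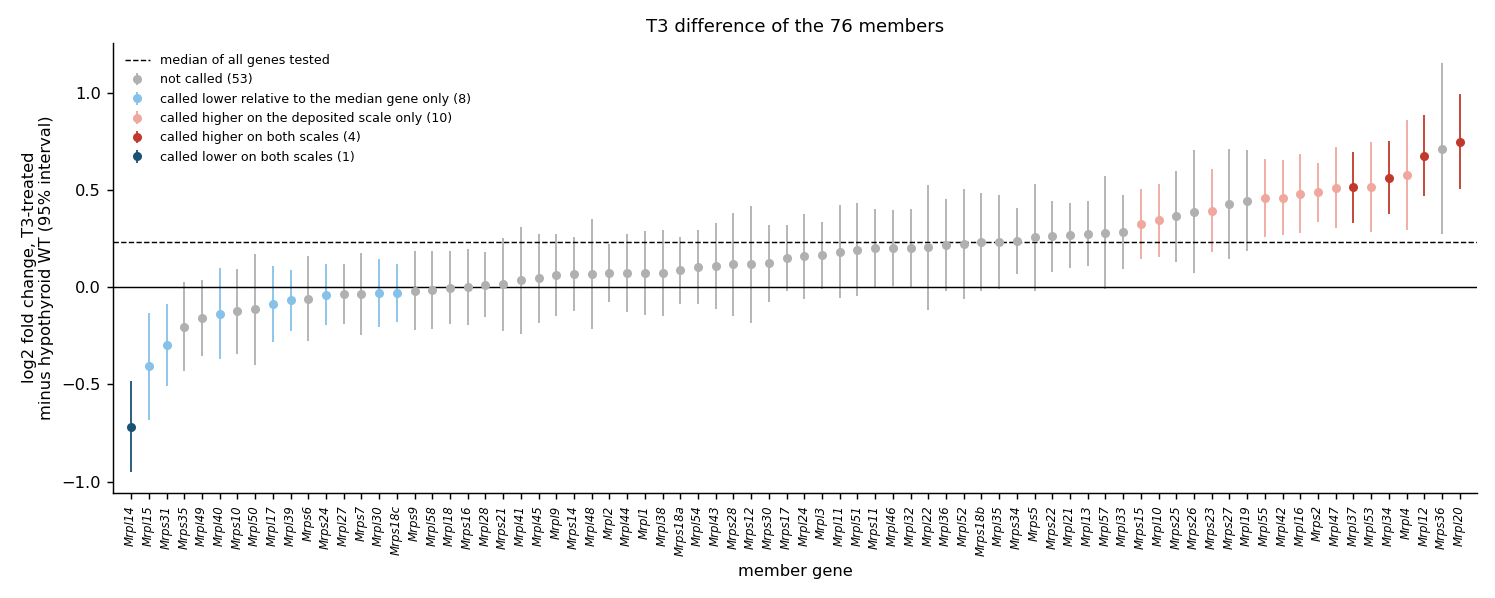
log2 fold change after T3 of each of the 76 members (x axis, sorted; y axis, hyperthyroid minus hypothyroid WT with 95% interval from limma), with the median of all genes tested as a dashed line at 0.23. Mrpl14 stands lowest at −0.72, Mrpl20 highest at 0.75, and 19 members lie below 0.

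Mrpl12 was the member with the largest difference in RPKM. Its RNA was at 68.5, 70.4, 75.5 and 66.5 RPKM in the hypothyroid WT libraries (replicates 1 to 4), at 107, 97.0, 122 and 125 RPKM in the hyperthyroid libraries and at 67.1, 69.7, 70.7 and 69.2 RPKM in the L-NCOR1ΔID libraries. Every hyperthyroid library was thus above every library of the other groups, while the other groups overlapped. After T3 it was higher by 0.68 ± 0.09 (log2 ± SE, limma adjusted p = 0.00043), from 70.2 ± 3.86 to 113 ± 13.2 RPKM (mean ± SD, n = 4), and relative to the median gene by 0.44 (adjusted p = 0.0020). The gene lies on chromosome 11 from 120345927 to 120350379 (NCBIM37, the same assembly as mm9, plus strand), and 13.1% of its exon bases are shared with Gm16755 on the opposite strand.

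Mrpl20, a large subunit protein with a bacterial counterpart, showed the highest log2 fold change. It was at 14.4, 18.6, 17.1 and 16.3 RPKM in hypothyroid WT, at 23.8, 26.9, 29.8 and 31.8 RPKM in hyperthyroid WT and at 16.9, 16, 16.4 and 15.4 RPKM in L-NCOR1ΔID libraries. All hyperthyroid libraries were above all others. The difference after T3 was 0.75 ± 0.11 (limma adjusted p = 0.00060) and relative to the median gene 0.51 (adjusted p = 0.0032). The gene lies on chromosome 4 from 155177645 to 155183885 (plus strand) and shares no exon base with another gene of the annotation.

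Mrpl34, a short basic protein of the large subunit, was at 29.3, 34.3, 34 and 31.9 RPKM in hypothyroid WT, at 42.9, 46.9, 49.3 and 53.0 RPKM in hyperthyroid WT and at 32.7, 38.5, 35.6 and 39.8 RPKM in L-NCOR1ΔID libraries. The hyperthyroid libraries were again the highest, and here the L-NCOR1ΔID libraries reached above the WT range in 3 of 4 cases. T3 raised it by 0.57 ± 0.08 (limma adjusted p = 0.00067), and by 0.33 relative to the median gene (adjusted p = 0.0086). In L-NCOR1ΔID mice its log2 fold change was 0.18 (limma adjusted p = 0.28).

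Mrpl37, a large subunit protein found only in mitochondria, was at 19.5, 21.8, 21.6 and 19.5 RPKM in hypothyroid WT, at 27, 28.6, 33.2 and 29.3 RPKM in hyperthyroid WT and at 18.4, 20.5, 18.8 and 17.9 RPKM in L-NCOR1ΔID libraries. The hyperthyroid libraries stood above all others. The difference after T3 was 0.52 ± 0.08 (limma adjusted p = 0.00092), and relative to the median gene it was 0.28 (adjusted p = 0.0072).

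Mrpl14, a large subunit protein at the face that meets the small subunit, moved the other way. It was at 63.0, 57.3, 50.3 and 67.5 RPKM in hypothyroid WT, at 33.3, 33.3, 39.8 and 37.9 RPKM in hyperthyroid WT and at 54.3, 60.1, 60.4 and 50.1 RPKM in L-NCOR1ΔID libraries. Every hyperthyroid library was below every other library. After T3 it fell by 0.72 on the log2 scale (SE 0.10, limma adjusted p = 0.00060), from 59.5 ± 7.42 to 36.1 ± 3.29 RPKM, and relative to the median gene by 0.96 (adjusted p = 0.00013). The gene lies on chromosome 17 from 45823271 to 45835444 (plus strand), its start is 583 bases from that of Tmem63b on the other strand, and 11.2% of its exon bases overlap Tmem63b, between which reads cannot be divided without strand. Malsu1, known to bind this protein during assembly of the ribosome, had 13.1 ± 1.03 RPKM in hypothyroid and 16 ± 0.955 RPKM in hyperthyroid mice (0.29 higher on the log2 scale, adjusted p of 0.015 in limma).

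**Figure D3:**
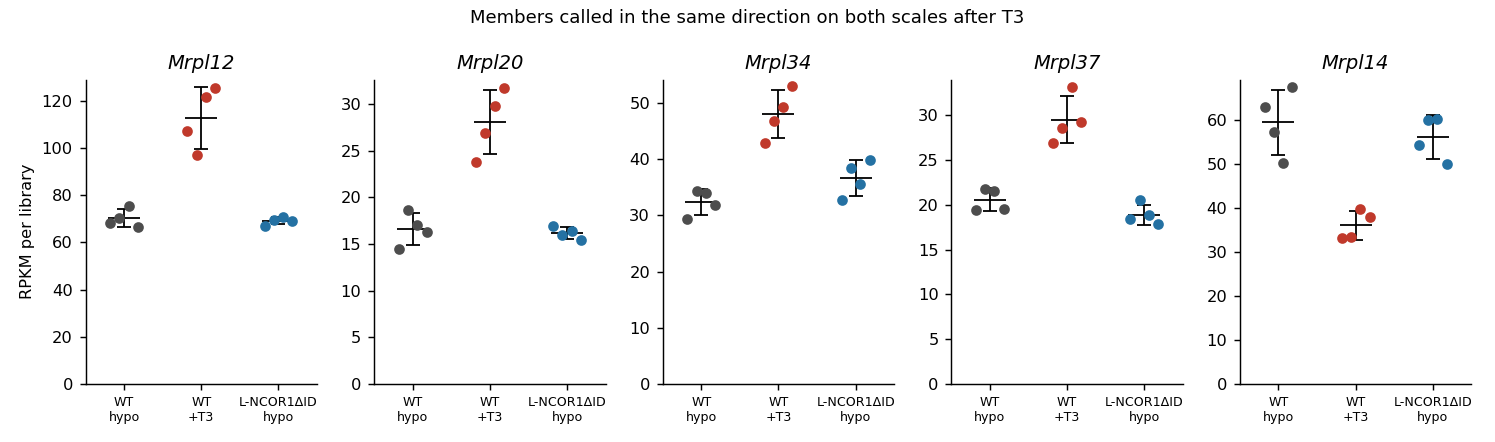
RPKM (y axis) of the 5 members in each of 12 libraries (points; 4 hypothyroid WT, 4 hyperthyroid WT, 4 hypothyroid L-NCOR1ΔID), with the mean and SD of each group as bars. Hyperthyroid libraries lie above all others for Mrpl12, Mrpl20, Mrpl34 and Mrpl37 and below all others for Mrpl14.

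A further 10 members were higher after T3 only on the deposited scale. Mrpl4, a protein of the peptide exit tunnel, was at 11.2, 14.4, 17.1 and 13.1 RPKM in hypothyroid and at 21.0, 18.5, 20.5 and 22.7 RPKM in hyperthyroid libraries (higher by 0.58 on the log2 scale, adjusted p of 0.0049 in limma), and it stayed called in 3 of 8 fits that left out 1 library. Mrps2 of the small subunit had the narrowest spread of these over hyperthyroid libraries (SD 0.06 on the log2 scale), at 15.4, 16.2, 14.6 and 14.2 RPKM in hypothyroid and at 22.4, 20.3, 20.9 and 21.2 RPKM in hyperthyroid libraries (0.49, adjusted p = 0.00043 in limma). In both genes the hyperthyroid libraries were all higher. Mrpl53 (0.52), Mrpl47 (0.51), Mrpl16 (0.48), Mrpl42 (0.46) and Mrpl55 (0.46) were called in at least 7 of the 8 such fits. Of the exon bases of Mrpl53, 87.1% are shared with Ccdc142 on the same strand, so that its value cannot be told apart from reads of that gene. Mrpl47 shares 17.7% with Actl6a and Ndufb5 on the other strand. The remaining calls were Mrps23 (0.40), Mrpl10 (0.34), the protein that anchors the Mrpl12 stalk, and Mrps15 (0.33). Mrps23, Mrpl10 and Mrps15 are named because of their values, and they were called in at most 2 of the 8 fits. Mrpl10 shares 14.1% of its exon bases with Gm11574 on the other strand. In all, 27 of the 76 members share exon bases with another gene. For the 49 that share none the median log2 fold change was 0.12, compared to 0.23 over all genes. Of these 49, 10 were higher and none lower, when 24.5% of all genes were higher and 7.71% lower. Relative to the median gene 3 of the 49 were higher and 7 lower, when 12.2% of all genes were higher and 14.0% lower. The 10 members called only as deposited differed relative to the median gene by 0.09 to 0.34 with adjusted p between 0.016 and 0.33.

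The 8 members lower only relative to the median gene were Mrpl15, Mrps31, Mrpl40, Mrpl17, Mrpl39, Mrps24, Mrpl30 and Mrps18c. Mrpl15, a large subunit protein, was at 14.5, 11.0, 11.1 and 13.4 RPKM in hypothyroid and at 8.75, 8.17, 9.74 and 10.9 RPKM in hyperthyroid libraries. Mrps31, a small subunit protein found only in mitochondria, was at 21.4, 19.7, 19.6 and 21.9 RPKM in hypothyroid and at 16, 14.5, 18.2 and 18.9 RPKM in hyperthyroid libraries. In these genes the groups did not overlap, and the log2 fold change was −0.41 (limma adjusted p = 0.022) and −0.30 (adjusted p = 0.027) as deposited. The other 6 were nearly level as deposited, with log2 fold changes from −0.14 to −0.03.

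The members related to bacterial S18 differed little after T3. Mrps18c, a small subunit protein, was at 21.6 ± 0.571 RPKM in hypothyroid and 21.2 ± 1.43 RPKM in hyperthyroid mice. Mrps18b, also of the small subunit, was at 14.9 ± 1.74 and 17.6 ± 2.14 RPKM, and Mrps18a of the large subunit at 23.2 ± 1.42 and 24.7 ± 1.93 RPKM. None of these was called on the deposited scale. Mrps30 (log2 fold change 0.12) and Mrpl58 (−0.01), which releases stalled peptides, were not called either. Mrps36, whose protein belongs to another complex, had a log2 fold change of 0.71 ± 0.20 with an adjusted p of 0.014 in limma, at 0.95, 1.32, 0.874 and 1.70 RPKM in hypothyroid and 1.97, 2.03, 1.79 and 2.17 RPKM in hyperthyroid libraries.

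By role, 11 of the 50 large subunit genes were higher and 1 was lower, and 3 of the 25 small subunit genes were higher, when 24.5% of all genes were higher and 7.71% lower. The balance turned relative to the median gene, with 4 higher and 6 lower in the large and 0 higher and 3 lower in the small subunit, when 12.2% of all genes were higher and 14.0% lower. Large subunit genes with a bacterial counterpart had a median log2 fold change of 0.21, with 8 of 29 higher and 1 lower. For large subunit genes classed as found only in mitochondria the median was 0.09, with 3 of 21 higher. In the small subunit the medians were 0.04 for the 16 genes with a bacterial counterpart (2 higher) and 0.26 for the 9 others (1 higher). Relative to the median gene these 4 medians were −0.03, −0.15, −0.20 and 0.02, with 3, 1, 0 and 0 genes higher and 4, 2, 2 and 1 lower. Each class spanned both directions, and the differences between classes were not tested. Members with an NRF1, ETS or YY1 match had a median of 0.19 (7 of 41 higher, 1 lower) and those with none of the 3 motifs 0.11 (6 of 26 higher). On the scale of the median gene, 3 of the former were higher and 6 lower, and 1 of the latter was higher and 2 lower.

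**Figure D4:**
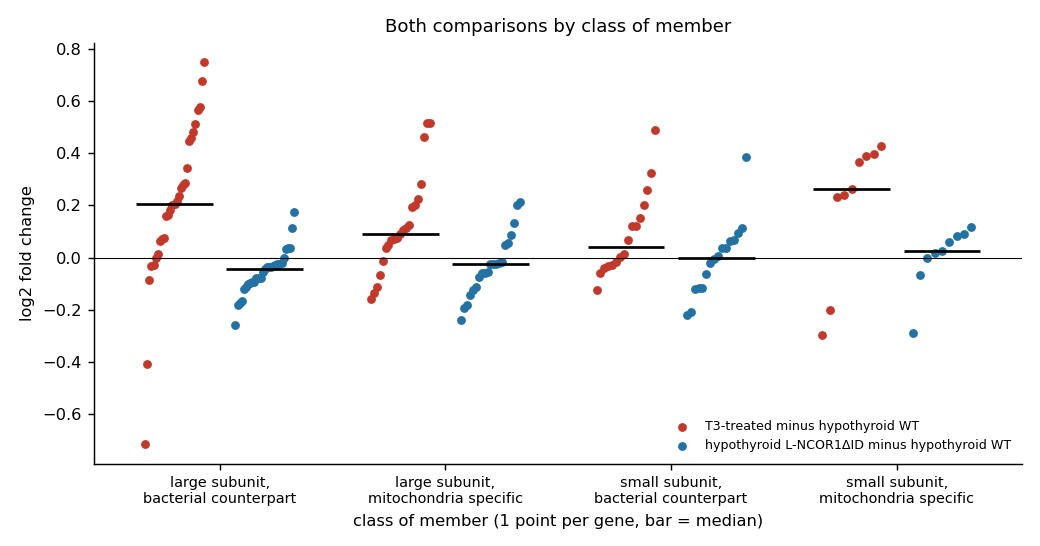
log2 fold change (y axis) of each member (points) by class (x axis) after T3 (red) and in hypothyroid L-NCOR1ΔID compared to hypothyroid WT mice (blue), with class medians as bars. T3 medians range from 0.04 to 0.26, and L-NCOR1ΔID medians lie between −0.04 and 0.03. Both comparisons share the hypothyroid WT libraries.

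The hyperthyroid libraries did not stand at the same level. Summed over the 76 members, RNA was at 1447, 1532, 1491 and 1478 RPKM in hypothyroid WT, at 1577, 1528, 1818 and 1811 RPKM in hyperthyroid WT and at 1418, 1536, 1490 and 1437 RPKM in L-NCOR1ΔID libraries. Hyperthyroid replicates 3 and 4 were the highest of all, whereas replicates 1 and 2 lay near the hypothyroid range, and replicate 2 inside it. The group means were 1487 ± 35.2, 1684 ± 153 and 1470 ± 53.5 RPKM, or 0.372, 0.436 and 0.374% of the summed RPKM of all genes. Compared to the hypothyroid mean, the median member differed by 0.05, 0.00, 0.28 and 0.28 on the log2 scale in hyperthyroid replicates 1 to 4, and the median of all genes by 0.19, 0.17, 0.34 and 0.23. Leaving out each library in turn gave a median between 0.11 and 0.20, with 10 to 18 members higher and 1 lower. The shares of all genes called in these fits were not taken.

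**Figure D5:**
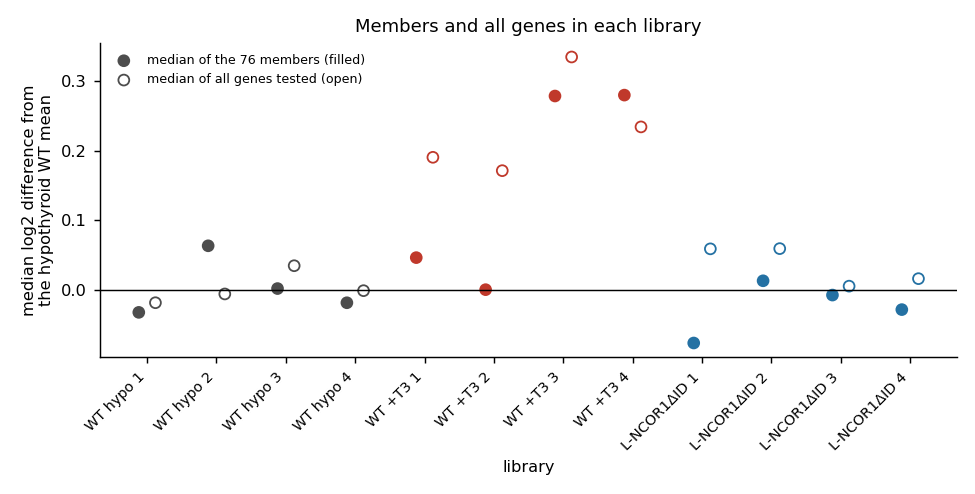
Median log2 difference from the hypothyroid WT mean (y axis) in each library (x axis) for the 76 members (filled) and all genes tested (open). Members reach 0.28 in hyperthyroid replicates 3 and 4 and 0.05 and 0.00 in replicates 1 and 2, and lie below the median of all genes in 3 of the 4 hyperthyroid libraries.

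Markers of liver cell types moved between the same groups. All 6 Kupffer cell markers tested (Clec4f, Vsig4, Cd5l, Adgre1, Csf1r and Marco) were higher in hyperthyroid WT mice, with a summed level of 42.2 to 59.9 RPKM in hypothyroid, 132 to 218 RPKM in hyperthyroid and 47.3 to 129 RPKM in L-NCOR1ΔID libraries. Of 7 hepatocyte markers, Alb and Ttr were lower and none higher. The 7 had a median log2 fold change of −0.003 after T3, with 3 above 0. Their sum, most of it Alb in WT mice, was 38058 to 49673, 19937 to 28691 and 31789 to 36032 RPKM in the same order of groups. Endothelial (2 of 5 higher), stellate (2 of 5 higher), cholangiocyte (1 higher and 1 lower of 4) and lymphocyte markers (1 of 4 higher) had sums of at most 64.6 RPKM per library. Of all genes tested, 24.5% were higher and 7.71% lower. No marker had a group mean of 0. All 6 Kupffer cell markers were also higher relative to the median gene, and Alb was no longer called (adjusted p of 0.022 in limma). Their part in the differences of the members was not tested. In liver tissue, fewer cells of a type and less RNA per cell cannot be told apart.

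Genes that act with the members were compared in the same fits. Mitochondrial ribosomal proteins without an Mrp symbol numbered 5 (Dap3, Ptcd3, Chchd1, Aurkaip1 and Gadd45gip1), and none was called after T3, with log2 fold changes from −0.12 to 0.18. Dap3 was lower relative to the median gene (−0.35, adjusted p of 0.0075 in limma). Of 24 factors that assemble the ribosome or modify its RNA, 5 were higher and none lower, when 24.5% of all genes were higher and 7.71% lower. These include Mterf3, a regulator of ribosome assembly (8.25 ± 1.17 RPKM before and 14.4 ± 0.675 RPKM after T3, a log2 difference of 0.80 with a limma adjusted p of 0.00033), Tfb1m, which methylates the small subunit RNA (0.51), and Fastkd2, an RNA-binding protein that acts in large subunit assembly (0.45). The median of the list was 0.06, compared to 0.23 over all genes, and −0.17 relative to the median gene. On that scale Mterf3 was the 1 gene called higher and 4 were lower, when 12.2% of all genes were higher and 14.0% lower. These 4, named after their values were seen, were Mterf4 (−0.73), Ngrn (−0.42), Noa1 (−0.41) and Rbfa (−0.36).

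Translation factors of mitochondria were higher in 3 of 15 cases, when 24.5% of all genes were higher and 7.71% lower. Their median of 0.23 was that of all genes tested (0.23). Gfm1, the elongation factor that moves the ribosome along the messenger, was at 31.7 ± 2.44 RPKM in hypothyroid and 47.2 ± 1.57 RPKM in hyperthyroid mice (higher by 0.57 on the log2 scale, adjusted p of 0.00025 in limma), and Guf1 (0.49) and Oxa1l (0.38), which inserts new peptides into the inner membrane, rose as well. Of 20 mitochondrial aminoacyl-tRNA synthetases and amidation enzymes, Qrsl1 (1.03) and Cars2 (0.53) were higher and Nars2 was lower (−0.62). Among 10 genes of mitochondrial DNA expression, the RNA polymerase Polrmt (0.55) and Tfam (0.27), which packages this DNA, were higher. Of 9 nuclear regulators, Nrf1 (0.68), Gabpb1 (0.51) and Pprc1 (0.96) were higher. The shares of all genes, 24.5% higher and 7.71% lower, stand beside each of these lists. Relative to the median gene Mterf3, Gfm1, Qrsl1 and Nrf1 stayed higher and Nars2 stayed lower, while the other genes named here lost the call. Of all genes, 12.2% were higher and 14.0% lower on that scale. Polg2 (−1.04) and Ppargc1a (−1.14), named after their values were seen, were lower on that scale only.

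Larger families give the scale of these shifts. Nuclear genes of oxidative phosphorylation were higher in 36 of 88 cases after T3 and lower in none, when 24.5% of all genes were higher and 7.71% lower. Their median was 0.29, compared to 0.23 over all genes. Relative to the median gene 9 of the 88 were higher and 3 lower, when 12.2% of all genes were higher and 14.0% lower on that scale. Genes of the cytosolic ribosome were higher in 2 of 82 cases and lower in 2, with a median of 0.10, which was −0.13 relative to the median gene, where 0 were higher and 3 lower. Reads of cytosolic ribosomal protein genes may be divided with their many pseudogenes. The members, at 0.16, lay between the families, and these differences were not tested.

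The second comparison asked whether the members differ when NCOR1 cannot contact TR. In hypothyroid L-NCOR1ΔID compared to hypothyroid WT mice no member was called in either direction by limma, when 0.725% of 13790 genes were higher and 0.544% lower. At an unadjusted p under 0.05, 2 members were higher (2.63%, compared to 12.8% of all genes) and 6 were lower (7.89%, compared to 7.77%). The median log2 fold change was −0.03 over the members and 0.03 over all genes. For 74 of 76 members the 95% interval lay within a fold change of 1.5 in either direction. No member was higher without overlap (7.78% of all genes) and 4 were lower without overlap (5.26%, compared to 5.36%).

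Mrps12, a small subunit protein at the decoding site, had the highest value, at 19.7, 24.6, 22.1 and 24.5 RPKM in hypothyroid WT and 30.4, 34.9, 31.5 and 22.9 RPKM in L-NCOR1ΔID libraries (0.38 ± 0.13 on the log2 scale, adjusted p of 0.14 in limma). The first 3 L-NCOR1ΔID libraries were above the WT range and replicate 4 was inside it. Mrpl52 differed by 0.21 (adjusted p = 0.22 in limma). Among the lowest, Mrpl49, a large subunit protein found only in mitochondria, was at 15.7, 16.9, 15.3 and 16.7 RPKM in WT and at 13.5, 13.3, 13.3 and 14.5 RPKM in L-NCOR1ΔID libraries (−0.24 ± 0.07, limma adjusted p = 0.078), without overlap. Mrps6 differed by −0.22 (adjusted p = 0.15) and Mrps22, at 10.1, 9.23, 10.5 and 13.2 RPKM in L-NCOR1ΔID compared to 12.4 to 13.6 RPKM in WT libraries, by −0.29 (adjusted p = 0.17). Of the exon bases of Mrps6, 43.8% are shared with Slc5a3.

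Among genes that act with the members, Gadd45gip1 was the only 1 of the lists of partners that was called. This protein of the large subunit had 14.1 ± 0.947 RPKM in WT compared to 20.9 ± 1.41 RPKM in L-NCOR1ΔID livers, a log2 difference of 0.56 (adjusted p of 0.0052 in limma). It was not called relative to the median gene (0.53, adjusted p of 0.011 in limma). None of the assembly factors, translation factors, tRNA synthetases, genes of mitochondrial DNA expression or nuclear regulators was called in this comparison.

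Hyperthyroid WT mice were also set against hypothyroid L-NCOR1ΔID mice, which uses the hyperthyroid libraries again. Here 13 members (17.1%) were higher compared to 15.5% of 14017 genes, and 1 (1.32%, Mrpl14) was lower compared to 5.7%. The median was 0.18 over the members and 0.19 over all genes. The number of higher members changed when single libraries were left out. It was 7, 8 and 6 without L-NCOR1ΔID replicates 1, 2 and 3, and 6 without hyperthyroid replicate 1, 3 or 4. Fewer libraries entered these fits, and the shares of all genes called in them were not taken. Relative to the median gene 5 members were higher (6.58%, compared to 7.51%), namely Mrpl20 (0.59), Mrpl12 (0.50), Mrpl37 (0.44), Mrpl47 (0.43) and Mrpl53 (0.38). Mrpl14 was lower on that scale (−0.83), and Mrpl40 and Mrps31 were called lower as well, which makes 3 lower members (3.95%, compared to 9.19% of all genes).

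The acetylated regions of this study give a further readout of the member genes. The deposited list holds 37200 regions in which H3K27 or H3K9 acetylation was found in hypo- or hyperthyroid WT liver, with no level per sample. The start of 74 of 76 members (97.4%) lay in such a region, compared to 86.6% of 12671 other genes tested with a position and 96.4% of the 1745 whose level lay between the quartiles of the members. The high share thus matched that of genes at a similar level. Mrpl33 and Mrps24 were the exceptions, and each had another annotated transcript start within a region. The median region at a member was 3176 bp, from 1661 bp to 22801 bp at Mrpl12. It was 3923.5 bp at the other genes tested and 4866 bp at those of a similar level, and this difference was not tested. Starts on the other strand within 1 kb, in either direction, were annotated for 29 members (38.2%). The share over all genes was not counted. These 29 members had a median log2 fold change of 0.12 after T3 compared to 0.16 for the 47 others.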

How the data were processed

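Poly(A) RNA was aligned by the authors to mm9 with STAR and HOMER was used to quantify each RefSeq transcript. The deposited table thus holds RPKM, scaled by the authors to the aligned reads of each library. The deposited list of acetylated regions was merged by the authors over both marks and conditions. Whether counting used strand is not given in the sources used here. The table has 0 unused columns of per-sample values, and 1 of 31370 transcripts carried no gene symbol and entered no test, with no more than 0.00079% of any library. Each gene was represented by the transcript listed first. Groups were compared with limma 3.58.1 (R 4.3.3), with a variance trend and only the groups compared in each fit, and relative to the median gene with libraries scaled by the median of gene ratios. Positions came from GENCODE M1 (NCBIM37) and promoters from RefSeq (GRCm38.p6), and both were used apart. Python 3.11.15, pandas 2.3.3, scipy 1.17.1 and matplotlib 3.10.9 were used. On simulated data, 200 genes with a mean log2 level above 2 were changed by 2 on the log2 scale. Of these, 98.5% were recovered for T3, 98% for L-NCOR1ΔID and 96.5% for hyperthyroid WT compared to L-NCOR1ΔID. Changes as small as those of the members were not simulated, so that the share of such changes that would be called is not known.

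The members and gene lists were chosen with earlier results of these data known. Named members were those with the largest called changes (up to 10 per direction for T3 and 5 for the other comparisons, or the 3 smallest p where none was called), the 5 highest, 3 lowest kept and those left out, members with particular roles, up to 5 whose call depended on scaling, the 3 most and least steady, and those without an acetylated region. From each list up to 3 called genes per direction were named. Alternatives were pseudocounts of 1 and 0.01, other filters on low values, all 12 libraries in 1 fit, a replicate block, no variance trend, scaling, an adjusted p under 0.05, the highest transcript, and each library left out. Other ChIP-seq data of the study were not used here.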

Additional observations from a re-analysis of the deposited data

Results flagged for a closer look

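In 5 of 120 groups of 4 libraries examined (37 named members and the summed levels), 1 library lay far from the other 3 by Dixon's ratio (95% critical value), when chance flags about 1 in 20 groups. Mrpl16 was at 27.4 RPKM in hyperthyroid replicate 2, compared to 31.2 to 31.4 RPKM in the other hyperthyroid libraries. It was at 17.1 RPKM in L-NCOR1ΔID replicate 2, compared to 22.1 to 23.0 RPKM in the others. Mrpl33 was at 22.6 RPKM in hypothyroid WT replicate 1, compared to 26.3 to 27 RPKM. Mrpl40 was at 13.2 RPKM in L-NCOR1ΔID replicate 4, compared to 14.2 to 14.3 RPKM. Mrps24 was at 31.4 RPKM in hyperthyroid replicate 3, compared to 28.1 to 28.6 RPKM.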

How the results depend on the processing

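Relative to the median gene, 4 members were higher and 9 lower after T3 in place of 14 and 1, and their median log2 fold change was −0.084. In hyperthyroid WT compared to hypothyroid L-NCOR1ΔID mice this scaling gave 5 higher and 3 lower in place of 13 and 1, with a median of −0.0094. At an adjusted p under 0.05, 24 members were higher and 3 lower after T3, and 24 were higher in the latter comparison. There, the count of higher members was 7 without a variance trend. With the replicate number as a block it was 7, and after T3 it was 11 higher and 1 lower. Shares of all genes were not taken at this limit or in these fits, so that the counts cannot be set against other genes. Libraries of the same number were weakly correlated, from −0.07 to 0.08 after T3 and from −0.15 to 0.18 for L-NCOR1ΔID. With 4 libraries per group these values cannot tell whether libraries of the same number share more than that number. No other call count moved by over 1.5 times under the block.

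Leaving out each library in turn gave 10 to 18 higher and 1 to 1 lower members after T3 (median 0.11 to 0.20), 0 to 0 in either direction for L-NCOR1ΔID (median −0.05 to −0.01), and 6 to 13 higher and 1 to 1 lower between hyperthyroid WT and L-NCOR1ΔID mice (median 0.16 to 0.25). YY1 matches fell to 2.99% of member promoters when only bases before the start were searched. No direction of a called member reversed under any alternative run. The causes were not tested, other than that fewer libraries entered the fits that left 1 out. Shares of all genes called in those fits were not taken. Low members rest on few reads, and the 0.1 RPKM added to each value weighs most on them.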
